A study of Mus musculus with 3 samples.

Results

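Voltage-gated calcium and sodium channel genes were examined for EZH2 occupancy in mouse bone marrow-derived macrophages, with and without lipopolysaccharide (LPS). The members were all mm10 RefSeq protein-coding genes whose symbols name a subunit of a voltage-gated calcium channel (Cacn) or of a voltage-gated sodium channel (Scn). They numbered 40 of 21887 protein-coding genes, of which 26 were calcium and 14 sodium channel genes. The cells were C57BL/6 marrow cells of adult mice grown for 5 days with M-CSF conditioned medium, and were either stimulated with LPS for 2 h (LPS) or left without treatment (NT). EZH2 was measured by ChIP-seq, the sequencing of DNA recovered with an antibody against the protein, in 1 library per condition, and an input DNA library was the third of 3 samples. No difference between LPS and NT therefore has a replicate check, and no p-value is given. The stimulated library is named TLR in the deposited file and was taken as the LPS sample because LPS is a Toll-like receptor ligand and no other EZH2 sample was stimulated. This limits every LPS value below.

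Voltage-gated calcium and sodium channels open when the cell membrane depolarises, and they carry the electrical signals of neurons, muscle and endocrine cells. Each has a pore subunit (alpha1 in calcium, alpha in sodium channels), and many also have auxiliary subunits. These are alpha2delta, beta and, at some channels, gamma in calcium channels and beta in sodium channels. Macrophages are not electrically excitable. EZH2 is the catalytic subunit of polycomb repressive complex 2, which methylates lysine 27 of histone H3 and is known to occupy CpG-rich promoters of genes that belong to other lineages.

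The LPS library had 4651 intervals with summit values of 7 to 100 (median 16), and the NT library had 9643 intervals with summit values of 11 to 253 (median 27). An interval is a stretch that the authors listed as enriched, and its summit value is the whole number they gave at its highest point, in a unit that no source used here gives. Read depth and scaling between the libraries are not given either, so a lower value in LPS than in NT does not show less EZH2, and in bulk chromatin fewer occupied cells and less EZH2 per cell cannot be told apart. A gene was counted when an interval reached within 2.5 kb of either annotated end, and its value is the highest summit value among those intervals. The same kind of count over 10 macrophage genes such as Csf1r and Adgre1 gave 1 gene with an LPS interval (10%, against 16.2% of all protein-coding genes) and 4 with an NT interval (40%, against 38.2%), and the NT share was near that of all genes. Occupancy is not expression, which was not analysed here.

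Of the 40 channel genes, 21 had an LPS interval (52.5%, against 16.2% of all protein-coding genes) and 21 had an NT interval (52.5%, against 38.2%). Both libraries had an interval at 20 genes (50%, against 15.6%). LPS alone had one at 1 gene (2.5%, against 0.535%) and NT alone at 1 gene (2.5%, against 22.6%). Among members with an NT interval, 95.2% also had an LPS interval, against 40.9% of all genes with an NT interval. Among members with an LPS interval, 95.2% also had an NT interval, against 96.7% of all such genes. The 94 potassium channel genes, a related family of voltage-gated and other channels, had an LPS interval at 39 (41.5%) and an NT interval at 48 genes (51.1%). Both were present at 81.2% of the potassium channel genes that had an NT interval. Members are not replicates, several lie side by side in the genome, and these shares are descriptions of 2 libraries.

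**Figure D1:**
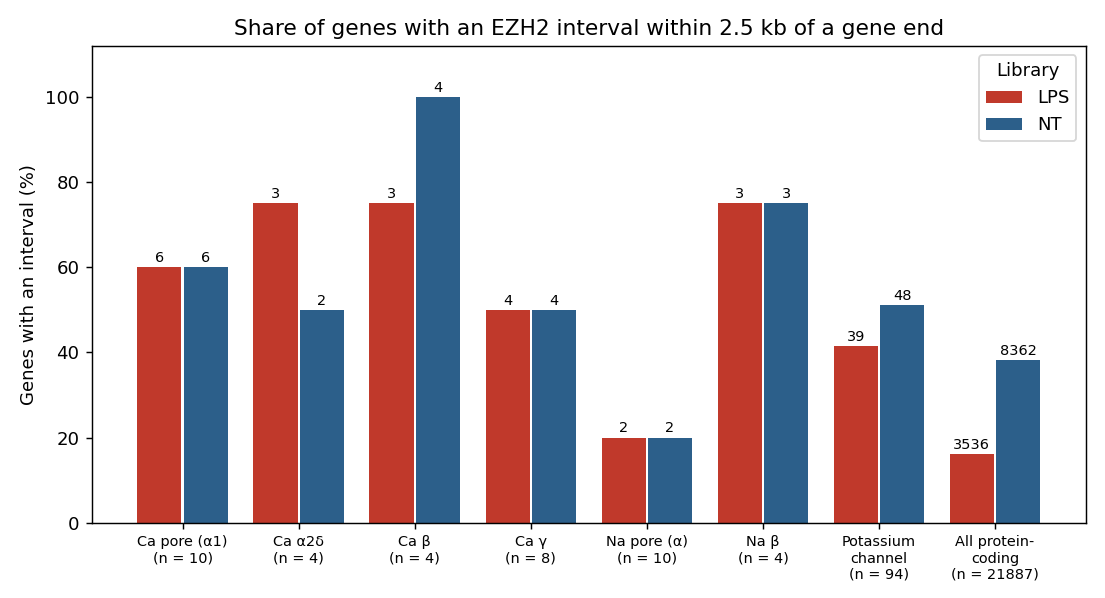
Share of genes with an EZH2 interval within 2.5 kb of a gene end (%) for LPS (red) and NT (blue), by subunit class and for potassium channel and all protein-coding genes; numbers over the bars are genes. Sodium channel pore genes stand at 20% in both libraries, and calcium channel pore genes at 60% in both.

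The intervals were counted by subunit class. Calcium channel pore genes had an interval in both libraries at 6 of 10 genes, alpha2delta genes at 2 of 4, beta genes at 3 of 4 and gamma genes at 4 of 8. Sodium channel beta genes had intervals in both at 3 of 4 genes. Sodium channel pore genes had them at 2 of 10, the lowest share among the classes and near the 15.6% of all protein-coding genes. Their share with an NT interval, 20%, was below the 38.2% of all protein-coding genes. The classes hold 4 to 10 genes each, and the differences between them were not tested. Of all 21887 protein-coding genes, 13408 had no interval of either library within 2.5 kb of an end. Of the 40 channel genes, 18 had none. These were the calcium pore genes Cacna1a, Cacna1c, Cacna1d and Cacna1f, the alpha2delta gene Cacna2d4, the gamma genes Cacng1, Cacng2, Cacng3 and Cacng5, the sodium pore genes Scn1a, Scn2a, Scn3a, Scn4a, Scn7a, Scn9a, Scn10a and Scn11a, and the sodium beta gene Scn2b.

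Promoter sequences were compared for channel genes that differ in occupancy. The RefSeq promoter table (GRCm38.p6, the assembly of mm10) held 41 promoters of 30 of the 40 genes, each with 250 bases before and 50 after a start site. The 3 pairs below set a covered or flanked promoter against an uncovered promoter of the same gene or of a neighbouring or related gene. Shown are the 250 bases before the start site, 5' to 3' on the strand of the gene, with every CG dinucleotide in capitals.
Cacna1c inner start, minus strand, chr6:119108496-119108745: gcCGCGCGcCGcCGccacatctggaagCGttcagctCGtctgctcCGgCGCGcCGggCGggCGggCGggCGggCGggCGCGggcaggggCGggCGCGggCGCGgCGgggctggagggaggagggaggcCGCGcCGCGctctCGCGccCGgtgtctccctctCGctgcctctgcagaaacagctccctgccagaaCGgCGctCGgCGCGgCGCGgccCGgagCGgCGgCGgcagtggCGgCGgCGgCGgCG
Cacna1c outer start, minus strand, chr6:119196410-119196659: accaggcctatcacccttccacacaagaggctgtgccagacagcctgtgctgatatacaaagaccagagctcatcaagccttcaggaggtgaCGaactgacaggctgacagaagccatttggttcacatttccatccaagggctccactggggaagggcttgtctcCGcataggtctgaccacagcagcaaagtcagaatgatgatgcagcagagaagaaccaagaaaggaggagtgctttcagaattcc
Scn4b, plus strand, chr9:45138374-45138623: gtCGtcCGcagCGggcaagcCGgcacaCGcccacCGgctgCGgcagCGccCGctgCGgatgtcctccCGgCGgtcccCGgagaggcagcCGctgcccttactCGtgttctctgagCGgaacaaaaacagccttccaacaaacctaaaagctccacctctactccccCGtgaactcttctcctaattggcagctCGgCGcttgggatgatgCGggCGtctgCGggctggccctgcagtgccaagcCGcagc
Scn2b, plus strand, chr9:45117626-45117875: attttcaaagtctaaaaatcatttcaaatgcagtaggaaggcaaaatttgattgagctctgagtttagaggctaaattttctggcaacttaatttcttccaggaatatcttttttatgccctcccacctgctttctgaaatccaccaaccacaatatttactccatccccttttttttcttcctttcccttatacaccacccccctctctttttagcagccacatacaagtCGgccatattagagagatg
Scn8a first start, plus strand, chr15:100870395-100870644: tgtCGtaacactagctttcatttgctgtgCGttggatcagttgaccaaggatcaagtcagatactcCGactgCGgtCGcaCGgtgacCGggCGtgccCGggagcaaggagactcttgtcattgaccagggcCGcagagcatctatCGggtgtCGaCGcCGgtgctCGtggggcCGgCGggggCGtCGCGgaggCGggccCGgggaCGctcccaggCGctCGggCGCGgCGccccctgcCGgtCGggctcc
Scn2a first start, plus strand, chr2:65620519-65620768: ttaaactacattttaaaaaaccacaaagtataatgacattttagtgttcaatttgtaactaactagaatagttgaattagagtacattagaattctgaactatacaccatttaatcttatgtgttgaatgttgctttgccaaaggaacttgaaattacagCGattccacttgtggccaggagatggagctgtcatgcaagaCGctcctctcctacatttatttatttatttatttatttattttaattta
The stretches of Cacna1c (inner start), Scn4b and Scn8a hold 48, 23 and 30 CG dinucleotides, and an interval of at least 1 library lay over each. Those of Cacna1c (outer start), Scn2b and Scn2a hold 2, 1 and 2, and no interval lay over them. The 6 were chosen after the intervals were known.

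Over all 41 promoters of 300 bases the same contrast was present. The 12 promoters with an interval of both libraries over them had a median of 32 CG dinucleotides (7 to 57), and the 25 with no interval had a median of 5 (2 to 63). The medians over all protein-coding genes were 24 for 2422 promoters with intervals of both libraries and 6 for 14281 promoters with none. The motif CGCG, which reads the same on both strands, was in 10 of the 12 covered promoters (83.3%) and in 5 of the 25 uncovered ones (20%). Over all protein-coding genes it was in 82.1% of covered and 33% of uncovered promoters, and in 49.2% of all 21263, so the share among covered channel promoters was near that of covered promoters at large. CG-rich promoters outside the intervals were the inner promoter of Cacna1d (63 CG), the Cacna2d1 promoter (42) and the Cacng2 promoter (20). The Cacna1d promoter lay in a gap between NT intervals, and an LPS interval began 252 bp after the Cacna2d1 start site. A count of letters is a description of the window and not of a binding site.

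**Figure D2:**
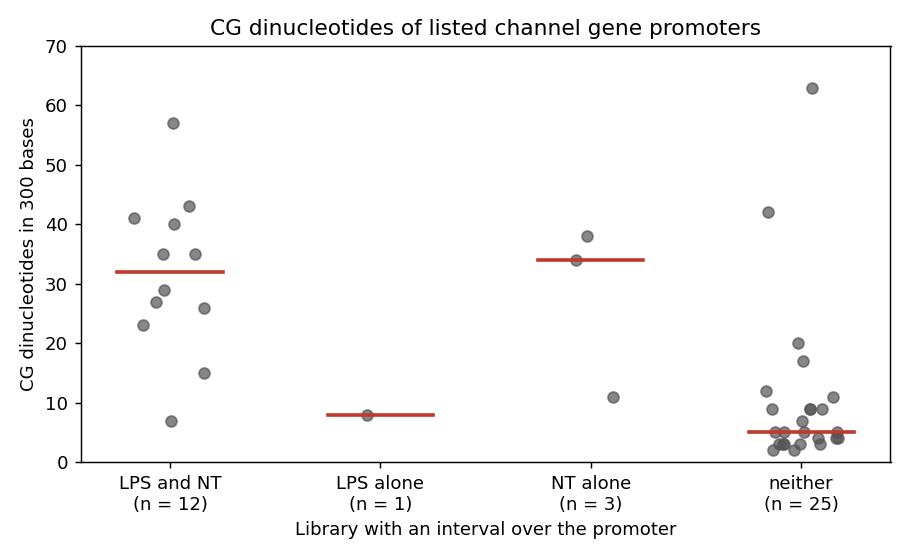
CG dinucleotides in the 300-base promoters of channel genes, by the library with an interval over the promoter; each point is a promoter and the red line is the median. The median is 32 for promoters covered in LPS and NT and 5 for those covered in neither, where 1 promoter reaches 63. That promoter, of the inner Cacna1d start site, lies in a gap between NT intervals.

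Among calcium channel pore genes, the T type genes had the highest NT values. These encode low-voltage-activated channels that open near the resting potential, and all 3 had intervals in both libraries. Cacna1g had a summit value of 53 in LPS and 101 in NT, the highest of all members in both libraries. Its LPS interval ran over chr11:94471029-94475645 and its NT interval over chr11:94470966-94475230, with the summit at the same position. Cacna1h had 36 in LPS and 83 in NT, in an LPS interval of 3944 bp and an NT interval of 5404 bp. Cacna1i had 32 in LPS and 67 in NT. Its start site lay in an LPS interval and an NT interval, and a second pair of intervals began after a gap of 210 bp in LPS and 180 bp in NT, with values of 28 in LPS and 51 in NT.

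The P/Q, N and R type genes encode the channels that trigger transmitter release at synapses. Cacna1b, the N type pore gene, had 35 in LPS and 60 in NT, in intervals of 2605 bp in LPS and 2617 bp in NT over the start site. Cacna1e, the R type gene, had 9 in LPS and 23 in NT at its annotated 5' end, the lowest LPS value among the members. The only start site of Cacna1e in the promoter table lies inside the gene, where an NT interval with a value of 23 and no LPS interval was listed. Cacna1a, the P/Q type gene, had no interval at its ends. Inside the gene it had an LPS interval with a value of 21, over chr8:84413630-84415341, and NT intervals with values of 40, 33 and 22. The first of these NT intervals met the LPS interval.

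The L type genes encode the high-voltage-activated channels of heart, muscle and endocrine cells, and only Cacna1s had intervals at a gene end. It had 15 in LPS and 33 in NT, and both intervals ended before the start site and covered the neighbouring gene Ascl5, of the achaete-scute transcription factor family. With intervals that also reach another gene left out, Cacna1s had none. Cacna1c and Cacna1d had intervals at a start site inside the gene. At Cacna1c the inner start site, printed above, lay in a gap of 137 bp in LPS and 166 bp in NT between 2 intervals, with values of 24 and 14 in LPS and 57 and 33 in NT. At Cacna1d the inner start site lay in a gap of 409 bp between NT intervals with values of 22 and 21. On the downstream side an LPS interval with a value of 18 was listed, and on the upstream side there was none. Cacna1f had no interval over the whole gene.

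The auxiliary calcium channel subunits carried intervals mainly at 5' ends. The beta subunits are cytoplasmic proteins that bring the pore to the membrane. Cacnb4 had 35 in LPS and 82 in NT, and Cacnb3 had the same value of 35 in LPS and 62 in NT. The NT interval at Cacnb3 was the widest of all member intervals, with 7590 bp over chr15:98630086-98637675, where LPS had 2 intervals of 4348 bp and 1418 bp. Cacnb2 had 23 in LPS and 49 in NT. Cacnb1, which encodes the beta subunit of skeletal muscle, had 22 in NT and no LPS interval, and its interval was shared with the overlapping ribosomal protein gene Rpl19. The nearest LPS interval lay 12784 bp away.

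The alpha2delta subunits are glycosylated proteins that raise the number of channels at the cell surface. Cacna2d2 had 33 in LPS and 39 in NT, and its ratio of LPS to NT of 0.846 lay above 98.3% of all genes with both intervals. At its 3' end a second LPS interval with a value of 10 met no NT interval. Cacna2d3 had 19 in LPS and 37 in NT. Its start site lay in a gap of 129 bp between NT intervals with values of 29 and 37, and LPS had an interval on the upstream side alone. Cacna2d1 was the only member with an LPS interval and no NT interval. The LPS interval had a value of 14 and 905 bp over chr5:15934943-15935847, and its summit was 734 bp after the start site. The nearest NT interval lay 1200120 bp away, and no NT interval was listed with a value under 11.

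The gamma subunits include muscle channel subunits and the proteins that accompany AMPA type glutamate receptors. Cacng8 had 39 in LPS and 51 in NT, at its 3' end and not at its start site. Cacng7 had 28 in LPS and 37 in NT at its 5' end, in intervals shared with a neighbouring gene, and 11 in LPS and 20 in NT at its 3' end. Cacng4 had 26 in LPS and 44 in NT, with a neighbouring pair of intervals at 16 in LPS and 17 in NT. Cacng6 had 13 in LPS and 22 in NT, and a second LPS interval over its start site with a value of 10 met no NT interval. That LPS interval began at chr7:3424312, close to the end of the NT interval at chr7:3424242. Cacng7, Cacng8 and Cacng6 lie side by side over 104 kb of chromosome 7, and the region held 6 LPS and 7 NT intervals. Cacng1, Cacng4 and Cacng5 lie side by side over 212 kb of chromosome 11, where Cacng4 alone had intervals.

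**Figure D3:**
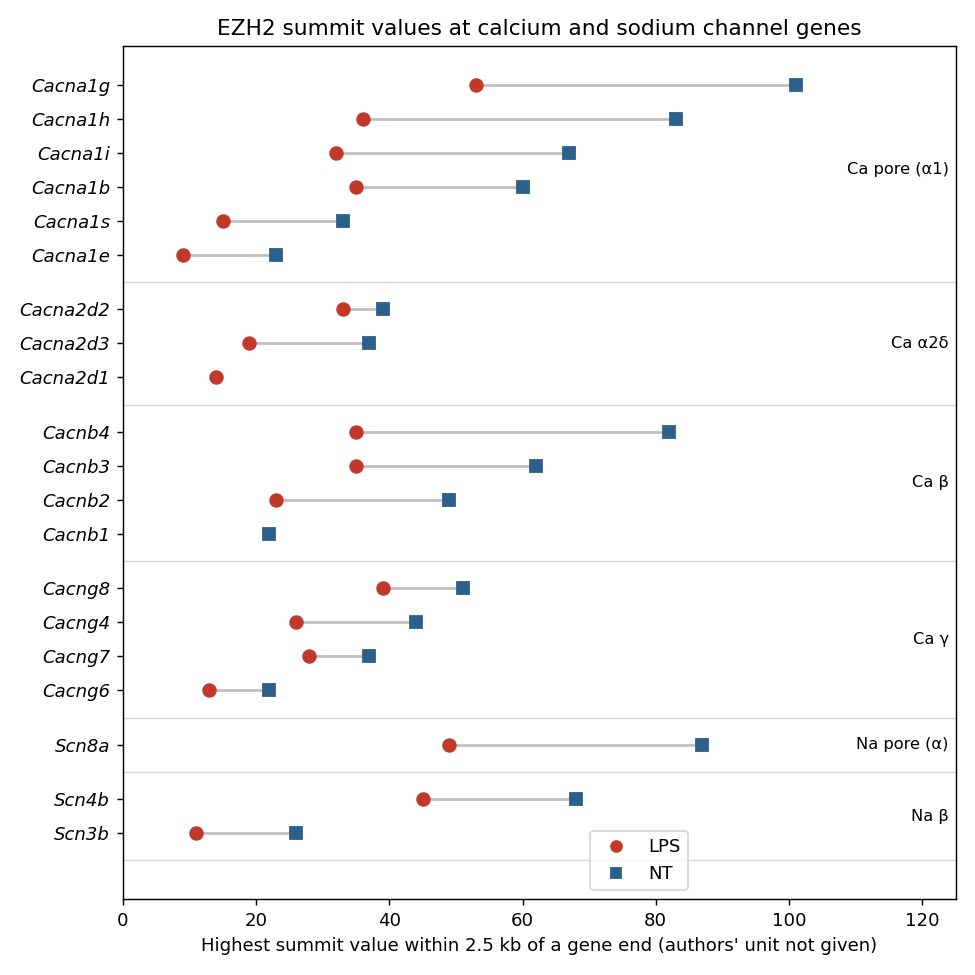
Highest summit value within 2.5 kb of a gene end in LPS (red circles) and NT (blue squares) for 20 of the 22 channel genes with an interval, grouped by subunit class; a line joins the values of a gene. The values are not scaled between libraries. LPS is below NT at all 18 plotted genes with both, as it is at most protein-coding genes with both. Cacna1g has the highest values, 53 in LPS and 101 in NT.

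Of the sodium channel pore genes with intervals, Scn8a is described here. Scn8a, a main pore subunit of neurons, had 49 in LPS and 87 in NT at its 3' end, in an LPS interval of 4046 bp and an NT interval of 4575 bp that also reached within 2.5 kb of an end of Fignl2. Near its first start site Scn8a had 25 in LPS and 56 in NT, with the summit at the same position. The first start site itself, printed above, lay in an NT interval with a value of 26 and in no LPS interval. A pair of intervals inside the gene had 21 in LPS and 32 in NT.

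The 8 sodium pore genes with no interval at their ends also had none within the gene or 2.5 kb around it. Scn3a, Scn2a, Scn1a, Scn9a and Scn7a, which encode channels of neurons and, for Scn7a, a sodium-sensing relative, lie together over 1330 kb of chromosome 2. That region held 1 LPS and 3 NT intervals, all outside the 5 channel genes, and of the 3 other protein-coding genes in it (Csrnp3, Galnt3 and Ttc21b) 1 had an LPS interval and 2 an NT interval. The nearest intervals to Scn10a, which encodes a channel of pain-sensing neurons, lay 29557 bp away in LPS and 27555 bp away in NT. Scn4a, the skeletal muscle pore subunit, had its nearest intervals 100743 bp away in LPS and 100095 bp away in NT.

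Sodium channel beta subunits are small membrane proteins that tune gating and cell adhesion. Scn4b had 45 in LPS and 68 in NT, in an LPS interval of 2326 bp and an NT interval of 2914 bp over the start site. The summits lay 129 bp after the start site in LPS and 65 bp after it in NT. Scn3b had 11 in LPS and 26 in NT. Scn2b, the neighbour of Scn4b within a region of 36.3 kb, had no interval, and the nearest lay 7492 bp away in LPS and 4329 bp away in NT.

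The intervals were also placed along the genes. Of the intervals at or in members, 9 LPS intervals at 9 genes and 11 NT intervals at 11 genes covered a listed start site, which 30 of the 40 members have. At 5' ends there were 17 LPS and 18 NT intervals, at 3' ends 4 LPS and 3 NT intervals, and at ends of genes without a listed strand 7 LPS and 9 NT intervals. Inside genes, away from the ends, there were 8 LPS intervals at 6 genes and 16 NT intervals at 8 genes. These placements were not counted over all protein-coding genes, so whether they are particular to the members is not known. Within 2.5 kb of a listed start site, 15 of the 30 members that have one had an LPS interval, against 14.6% of the 17492 genes with a listed start site. An NT interval was there at 16 of these 30 members, against 36.5% of those genes. With the gene body included, 24 members had an LPS interval (17.6% of all genes did) and 24 an NT interval (40.5%), 23 had both (17%), and LPS alone (0.594%) and NT alone (23.5%) had 1 each. Channel genes are long, with a median length of 104 kb against 17.2 kb over all protein-coding genes, and the part of length in these counts was not tested. Of the 16 NT intervals inside members 43.8% met an LPS interval, against 83.3% of the 30 NT intervals at member ends and 43.2% of all NT intervals. Their median values also differed, with 22.5 inside members, 37.5 at member ends and 27 over all NT intervals. NT intervals at the ends of all genes were not counted apart, and the part of the values was not tested.

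**Figure D4:**
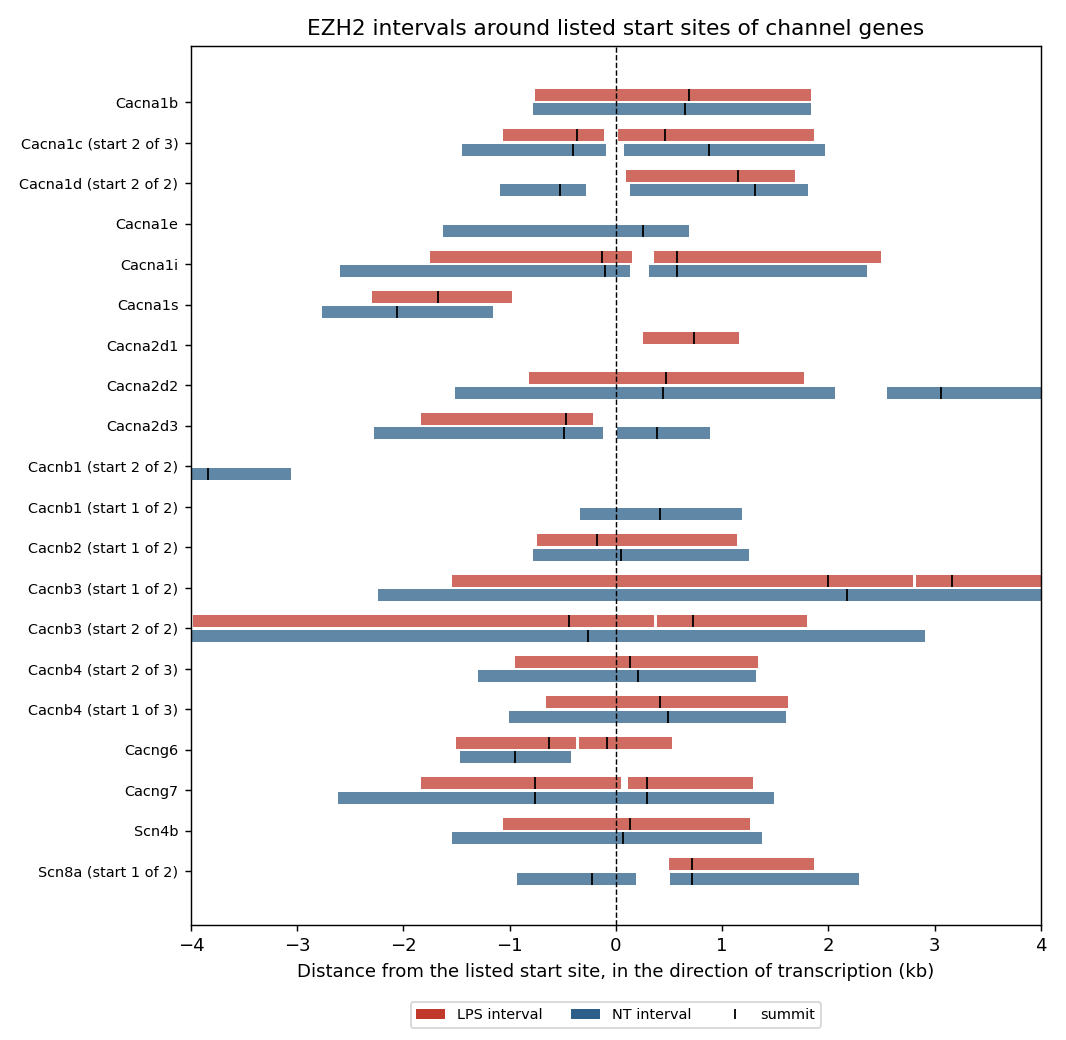
LPS (red, upper) and NT (blue, lower) intervals within 4 kb of the listed start sites of channel genes, in the direction of transcription; the dashed line is the start site and black ticks are summits. At Cacna1c (start 2 of 3) the start site falls between 2 intervals in both libraries, at Cacna1d and Cacna2d3 between 2 NT intervals, and at Cacna2d1 an LPS interval alone is listed.

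At member ends the positions of the summits were close between libraries. The median distance between the summits of intervals that met was 32 bp there, against 128 bp over all intervals that met. The summits had the same position in 5 of the 25 pairs, against 274 of all 4375 LPS intervals that met an NT interval. Inside members the median was 189.5 bp for LPS and 155 bp for NT intervals, and 0 of the 8 LPS intervals there had the same position. NT intervals at member ends also had higher values than all NT intervals, with medians of 37.5 and 27. The highest NT value per gene at gene ends had a median of 44 over members, against 28 over all genes with an NT interval. For LPS these medians were 28 over members and 18 over all genes with an LPS interval. Most summits are listed on a grid of 16 bp (93.3% of LPS and 96.6% of NT summits). At all 20 members with both intervals the LPS value was lower than the NT value. The same held at most protein-coding genes with both, so it is not particular to the members. The median ratio of LPS to NT was 0.519 over these members (0.391 to 0.846), against 0.491 over all genes with both, whose quartiles were 0.407 and 0.577. The lowest ratios were those of Cacna1e (0.391), Scn3b (0.423), Cacnb4 (0.427) and Cacna1h (0.434), and the highest were those of Cacna2d2 (0.846), Cacng8 (0.765), Cacng7 (0.757) and Scn4b (0.662). The error of a ratio from 1 library per condition is not known.

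Whether a gene with an NT interval also had an LPS interval went with its NT value over all genes, so the members were set beside genes of like NT value. With NT values of 21 to 30, 3 of 4 members had an LPS interval, against 25.3% of 3363 genes. With values of 31 to 40, 6 of 6 did, against 46.1% of 1678 genes. With values of 41 to 60, 4 of 4 did, against 82.7% of 1058 genes. With values over 60, 7 of 7 did, against 98.6% of 734 genes. The potassium channel genes also lay above all genes in the lower ranges, with 9 of 14 (64.3%) at 21 to 30, 7 of 8 (87.5%) at 31 to 40 and 10 of 10 at 41 to 60. No member had an NT value of 20 or lower. In the range of 31 to 40 the NT intervals of members covered a median of 3306.5 bp per gene, against 1518 bp over all genes. The other ranges differed less, with 1400.5 bp against 1250 bp at 21 to 30 and 2745.5 bp against 2522.5 bp at 41 to 60. Over 60 it was 4782 bp against 4731 bp. The part of width in the counts was not tested. When only the strongest NT intervals were kept, as many as LPS had, 17 members had an NT interval (20.6% of all genes did), 4 had one in LPS alone (3.75%) and 0 in NT alone (8.17%).

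**Figure D5:**
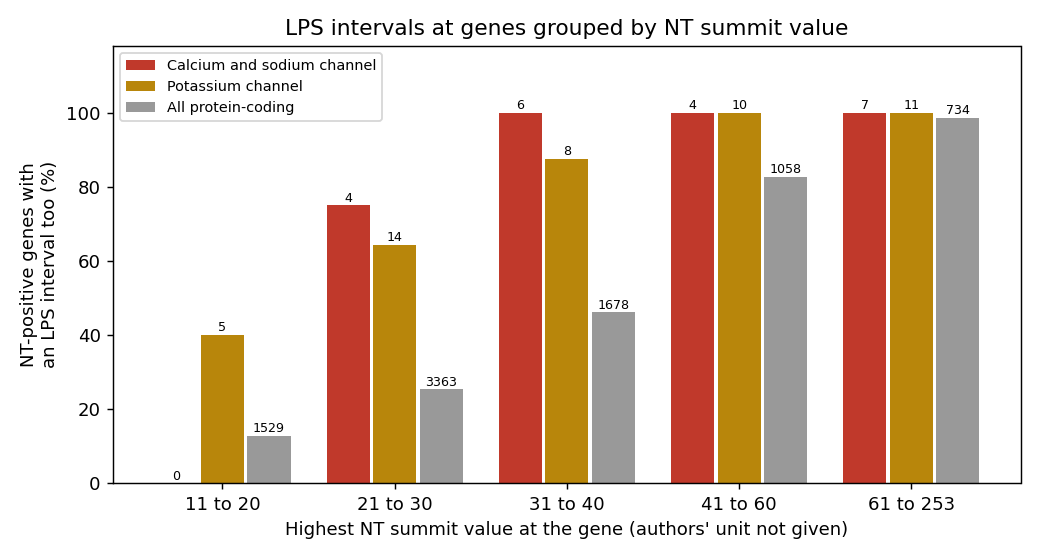
Share of genes with an NT interval that also had an LPS interval (%), by highest NT summit value, for calcium and sodium channel genes (red), potassium channel genes (gold) and all protein-coding genes (grey); numbers over the bars are genes with an NT interval. At NT values of 31 to 40 all 6 calcium and sodium channel genes and 7 of 8 potassium channel genes also had an LPS interval, against 46.1% of all genes.

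Genes whose products act with these channels were counted in the same way. Of 30 accessory protein genes, 9 had an LPS interval (30%, against 16.2% of all genes) and 16 an NT interval (53.3%, against 38.2%). Both had one at 9, LPS alone at 0 and NT alone at 7, and the share in NT alone (23.3%) was near that of all genes (22.6%). Rims2, a scaffold of the presynaptic release site, had 71 in LPS and 129 in NT. Stac2, an adaptor of L type channels, had 45 in LPS and 80 in NT, and Fgf11, an intracellular factor of the family that binds sodium channels, had 25 in LPS and 57 in NT, in an NT interval shared with Tmem102. Rem1, a GTPase that inhibits calcium channels, had 25 in LPS and 47 in NT. The calmodulin gene Calm2, which is transcribed in most cells, had 36 in NT and no LPS interval.

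Of 25 genes of calcium entry and release outside the family, which include channels that macrophages are known to use, 4 had an LPS interval (16%, near the 16.2% of all genes) and 12 an NT interval (48%, against 38.2%). LPS alone had one at 0 and NT alone at 8 (32%, against 22.6%). Orai3, a store-operated calcium channel gene, had 70 in LPS and 162 in NT, in an interval shared with Setd1a. Tpcn1, an endolysosomal channel gene, had 17 in LPS and 46 in NT, in an NT interval shared with Iqcd, and Itpr3, an inositol trisphosphate receptor gene, had 14 in LPS and 36 in NT. The calcium pump gene Atp2b1 (43), the cation channel gene Trpv2 (39) and the ATP receptor gene P2rx4 (31) had NT intervals and no LPS interval, and that of Trpv2 was shared with Lrrc75a. Of genes with an NT interval, 56.2% of the accessory genes and 33.3% of these genes had an LPS interval too, against 40.9% of all genes.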

How the data were processed

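Per the submitters' processing notes, the tools were BWA and SICER and the build was mm10, with neither versions nor roles stated. BWA aligns reads, and SICER joins enriched windows into broad islands. The single deposited file has 5 tracks, holding intervals and summits for each EZH2 library and merged regions. The summit value, a whole-number score, was deposited by the authors without a unit. The positions, deposited as BED coordinates, are printed 1-based on mm10. Each summit lay in the interval of the same row in its list. No intervals of the input DNA library were used here, and duplicates, use of the input and scaling are not given in the sources used here.

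The 21887 protein-coding genes, mitochondrial ones left out, were placed by a RefSeq table of GRCm38.p6 that gives no strand. Strands and start sites came from the RefSeq promoter table. Overlaps of at least 1 bp were counted in Python 3.11.15 with pandas 2.3.3 and tested on simulated intervals. Neighbouring genes can share intervals. The members and lists were chosen with earlier results of these data known. All members enter the counts, members with an interval are given with values, and of the accessory and calcium lists up to 6 genes with the highest NT value are named, except some genes that are not reported here by name. Alternatives were other windows, gene bodies, listed start sites, joined intervals, stronger intervals and an NT list cut to the LPS length. Settings that require the summit in the window or leave out shared intervals were chosen after seeing the data.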

Additional observations from a re-analysis of the deposited data

How the results depend on the processing

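No paired analysis was possible because neither LPS nor NT had a second library. Of 54 values recomputed under 9 settings, 45 stayed within 1.5 times of the reported value and 9 did not, all of them counts of genes in LPS alone or in NT alone, which are 1 each as reported. LPS alone had 2 genes with 1 kb windows (0.525% of all genes did), 0 with only intervals from the median summit value upwards (0.521%) and 4 with the NT list shortened to as many intervals as LPS had (3.75%). NT alone had 2 genes with 1 kb windows (21.4% of all genes), with 5 kb windows (23.7%), with listed start sites only (22.4% of the 17492 genes with one) and with only intervals from the median upwards (12.1%). It had 0 with the shortened NT list (8.17%) and with shared intervals left out (14.1%). A shortened NT list can by construction only raise the count in LPS alone and lower that in NT alone, and for the other settings the cause was not tested. Counts of members in both libraries ran between 14 (listed start sites only, which 30 members have) and 23 (gene body included), and the median ratio of LPS to NT between 0.514 and 0.563. Leaving out replicates was not possible. Unknown depth and scaling limit all comparisons of values between LPS and NT.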
